A study of Mus musculus with 6 samples.

Results

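Mouse marrow cells grown in culture under the fusion oncogene MLL-AF9 were set beside freshly sorted mouse LSK cells, gene by gene, for genes of lineage, maturation, growth and metabolism. The comparison used 2 of the 6 samples of the series and 3 of its 9 libraries: the wild type LSK sample (1 library) and the MLL-AF9 sample with intact Mll4 (2 libraries, called MLL-AF9 libraries 1 and 2). LSK cells are marrow cells that lack the surface markers of mature lineages and carry Sca1 and c-Kit. Those used here came from a wild type MxCre+ mouse that had been given polyIC, a double-stranded RNA that switches on the Mx promoter of the Cre transgene, and were taken at 2 months of age. About 50 sorted cells were picked by hand, and their cDNA was amplified by PCR before sequencing. The MLL-AF9 cells were marrow cells labelled Mll4f/f, that is with both copies of Mll4 (Kmt2d) flanked by loxP sites but not recombined. They carried MLL-AF9 on a GFP retrovirus and an empty Tomato retrovirus in place of Cre, were sorted for both colours 5 days after the second infection, and their growth time is given as 14 days. RNA of these cells was extracted in bulk and made into libraries with a TruSeq kit. All mice were of a mixed 129/Sv and C57BL/6 background, and the protocols name MxCre for the marrow donors as well.

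LSK cells hold the blood stem cells and the earliest progenitors, which keep growth factor receptors such as Flt3 and the transcription factors of self-renewal. As such cells mature along the myeloid branch they first fill primary granules with proteases and myeloperoxidase, then either make the later granules of neutrophils or take on the lysosomes, scavenger receptors and integrins of macrophages. MLL-AF9 is a fusion of the methyltransferase MLL1 with AF9 that causes myeloid leukaemia, blocks this maturation at an immature stage and is known for keeping the Hoxa cluster and Meis1 switched on.

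The cell kinds differ in culture, in the number of cells and in the library protocol, and these cannot be told apart here. No test was run between them, since LSK cells gave 1 library: the smallest two-sided p of an exact permutation test of 1 library against 2 is 0.667. Levels are CPM, the usual scaling of a gene's counts by the total of its library. The total was 26599883 in the LSK library and 48102130 and 49491900 in the MLL-AF9 libraries. The MLL-AF9 libraries are separate samples of cells rather than 1 library read again, since their counts differed by 146 times the sampling noise (chi-square per degree of freedom). The ratio of a gene is that of the MLL-AF9 library nearer to the LSK library, on the log2 scale, with a count of 0 set to 3 counts. Medians over genes, of a list or of all compared genes, are of the mean log2 ratio of both MLL-AF9 libraries. In these bulk libraries fewer cells of a type and less RNA per cell cannot be told apart, and intervals cover counting error only.

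The 2 kinds of cells differed widely. Of 4613 genes at 50 CPM or more in either kind, 1654 (35.9%) were at least 4-fold higher in both MLL-AF9 libraries and 453 (9.82%) at least 4-fold lower. The median log2 ratio of all compared genes was 1.05. The MLL-AF9 pair was far closer to itself: 9 of 3973 genes (0.227%) were 4-fold apart within it.

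**Figure D1:**
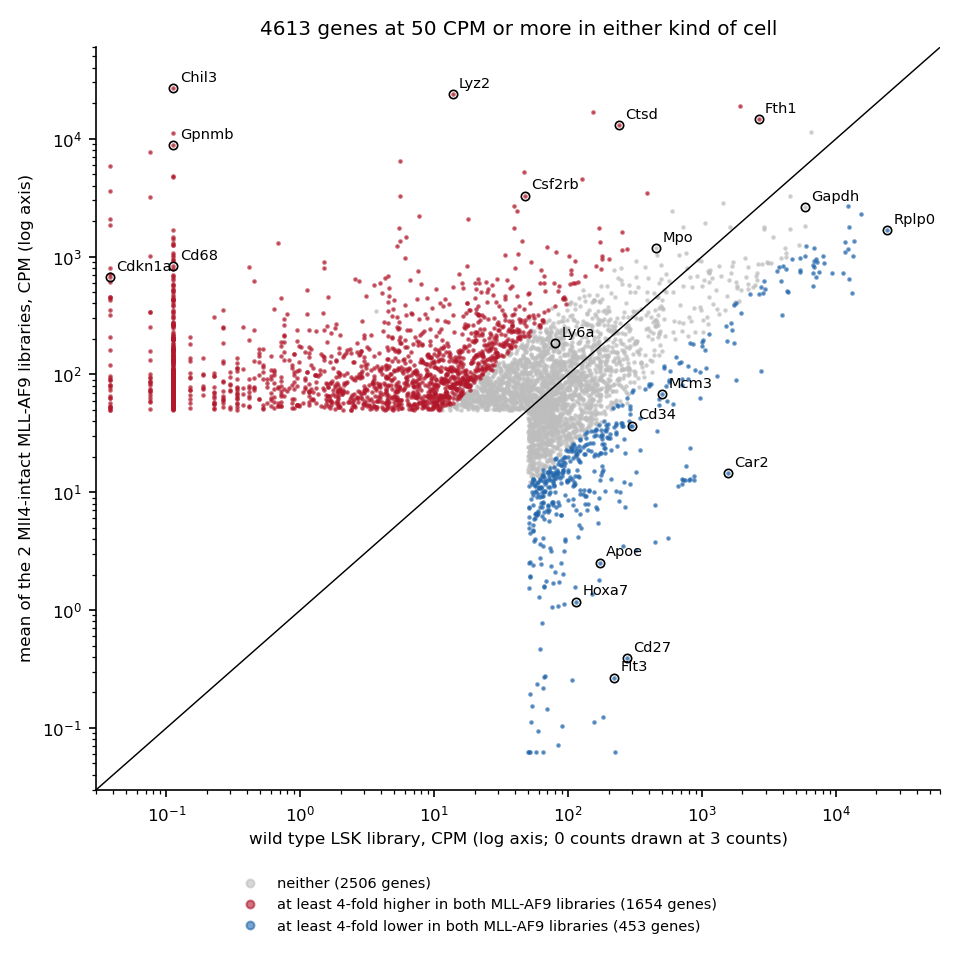
Level of each compared gene in the wild type LSK library (x axis, CPM, log scale, 0 counts drawn at 3 counts, so that genes with 1 or 2 counts lie further left) and as the mean of the 2 MLL-AF9 libraries (y axis, CPM, log scale, drawn no lower than 3 counts), with the line of equal levels. The 1654 genes called higher reach down to 0 counts in LSK cells, while the 453 called lower hold a dense group of ribosomal protein genes at upper right and stem cell genes such as Flt3 at lower right.

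The LSK libraries set limits on these ratios. The other LSK library of the series, labelled Mll4 deleted and made by the same protocol, lay 4-fold or more from the wild type one for 1064 of 3284 genes (32.4%). Against both LSK libraries at once, 1310 genes were at least 4-fold higher and 226 lower in the MLL-AF9 libraries. Of the 3389 genes at 50 CPM or more in both MLL-AF9 libraries, 441 were below 1 CPM in wild type LSK cells. Among these were genes that every cell uses: Pdia3, an enzyme that forms disulfide bonds in the endoplasmic reticulum, had 1 count in the wild type LSK library and 1.70 CPM in the other. The stem cell factor Erg had 0 counts in both LSK libraries. A value of 0 in LSK cells therefore cannot be read as absence of the RNA from these cells.

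The ratio also moved with the length of the transcript. Genes were split by length into 10 classes of equal size. The median log2 ratio was −0.51 in class 1, with the shortest transcripts (354 to 1359 bases), and 1.95 in class 10, with the longest (from 6780 bases), and 24.1% and 47.6% of these genes were called higher. Between the MLL-AF9 libraries the median ratio stayed between 0.03 and 0.17 over the classes. The part of transcript length in the gene list results was not tested beyond an alternative that subtracts the median of each class, under which 1165 genes were called higher and 811 lower.

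**Figure D2:**
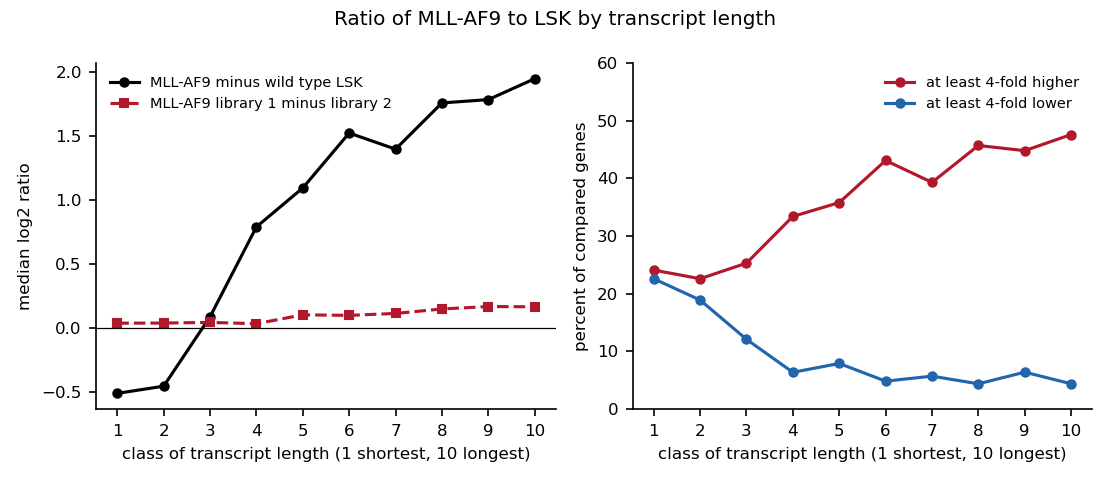
Compared genes split into 10 classes by the length of their longest transcript (x axis, class 1 shortest). The left panel shows the median log2 ratio of MLL-AF9 to LSK cells (circles) and of MLL-AF9 library 1 to library 2 (squares), the right panel the percentage of genes at least 4-fold higher or lower. The first median climbs from −0.51 to 1.95 and the second stays near 0.

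The labels were checked against the markers of each kind. Kit, the stem cell factor receptor of the LSK gate, stood at 46.8 CPM in LSK cells and 29.0 and 25.3 CPM in MLL-AF9 libraries 1 and 2. Ly6a, which encodes the Sca1 of the gate, stood at 80.2 CPM in LSK cells and was higher in MLL-AF9 cells, at 178 and 190.2 CPM. Ly6a did not pass the 4-fold limit against the wild type LSK library, but in the other LSK library it stood at 28.2 CPM, a log2 ratio of 2.65. Kit was under 50 CPM in both kinds and was not compared. The 9 fixed markers of LSK cells summed to 1361 CPM there and to 275 and 268 CPM in the MLL-AF9 libraries. Of the fixed markers of lineages that the sort removes, Cd3e, Csf1r, Adgre1 and Cd14 were among those with 0 counts in LSK cells, while Lyz2 stood at 13.7 CPM and Mpo at 452 CPM.

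Further markers of other lineages were counted in the wild type LSK library, and their part in the results was not tested. Klf1, the master factor of red cell maturation, stood at 92.8 CPM there, with 0 counts in the other LSK library, and Col1a2, a collagen chain of stroma, at 43.6 CPM, again with 0 counts in the other. The 5 erythroid markers summed to 93.2 CPM, but those of haemoglobin were at 0. The other lineage marker sums in that library were 0.752 CPM for B cells (4 markers), 48.6 CPM for T and NK cells (4, of which Nkg7, also in the primary granule list, made up 47.3 CPM), 7.07 CPM for megakaryocytes (4) and 7.74 CPM for mast cells, basophils and eosinophils (4).

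In MLL-AF9 cells the myeloid markers were all present. The 9 that were measured summed to 29755 and 35670.0 CPM, against 468 CPM in LSK cells, of which Mpo made up 452 CPM. Sex-linked genes differed between the libraries: Xist stood at 3.65 CPM in LSK cells and at 1.08 and 687 CPM in MLL-AF9 libraries 1 and 2, and the Y-linked Ddx3y at 0.827, 52.0 and 0.121 CPM. MLL-AF9 library 1 thus came from male and library 2 from female cells, and a gene called here differs from LSK cells in both. Kmt2d itself had 50 counts in LSK cells (1.88 CPM) and stood at 79.5 and 61.7 CPM in the MLL-AF9 libraries. It is intact in both kinds by their labels, and its transcript, at 19823 bases, belongs to the longest class.

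Most compared stem cell genes were lower in MLL-AF9 cells. Of 43 genes in the list, 24 were compared, of which 14 were at least 4-fold lower in MLL-AF9 cells and 1 was higher. Among all compared genes 9.82% were lower. The list's median log2 ratio was −3.13 (all genes 1.05). Only 9 of the 43 reached 50 CPM in both MLL-AF9 libraries. Many were thus compared through their LSK level, which makes a lower call likely. Over all 43 genes the median was −2.19. Over the compared members it was −1.01 with the other LSK library in place. Against the other LSK library as well, 10 of the 14 were lower. Flt3 (NCBI gene 14255), the receptor that marks multipotent progenitors losing stem cell potential, stood at 221 CPM in LSK cells and at 0.333 and 0.202 CPM in MLL-AF9 libraries 1 and 2. Both MLL-AF9 libraries lay far below both LSK libraries, of which the other held Flt3 at 212 CPM.

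Transcription factors and surface proteins of stem cells followed the same direction. Hlf, a factor restricted to the stem cell end of the hierarchy, stood at 151 CPM in LSK cells and at 1.95 and 0.788 CPM in the MLL-AF9 libraries. Cd27, a receptor of the TNF family on early progenitors, went from 274 CPM to 0.541 and 0.242 CPM. Esam, an adhesion protein of stem cells and endothelium, had a log2 ratio of −6.37, and Adgrl4, an adhesion G protein-coupled receptor, one of −7.61. For all 4, the other LSK library gave a ratio on the same side, from −9.30 for Cd27 to −5.23 for Hlf.

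Some members were less far apart or not lower at all. Cd34, a mucin of progenitors, stood at 298 CPM in LSK cells and 41.4 and 31.9 CPM in MLL-AF9 cells, and Procr, the protein C receptor, had a log2 ratio of −3.54, though at 12.8 CPM in the other LSK library it was no higher there than in MLL-AF9 cells. Sox4, a factor of immature cells, was lower by a log2 ratio of −4.37. Gata2, which serves stem cells and mast cells alike, stood at 269 CPM in LSK cells, between the MLL-AF9 libraries at 322 and 179.9 CPM. Vwf, the clotting factor of platelets and of platelet-primed stem cells, was the member called higher, at 40.0 CPM against 167 and 179 CPM. The remaining 19 members were under 50 CPM in both kinds.

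**Figure D3:**
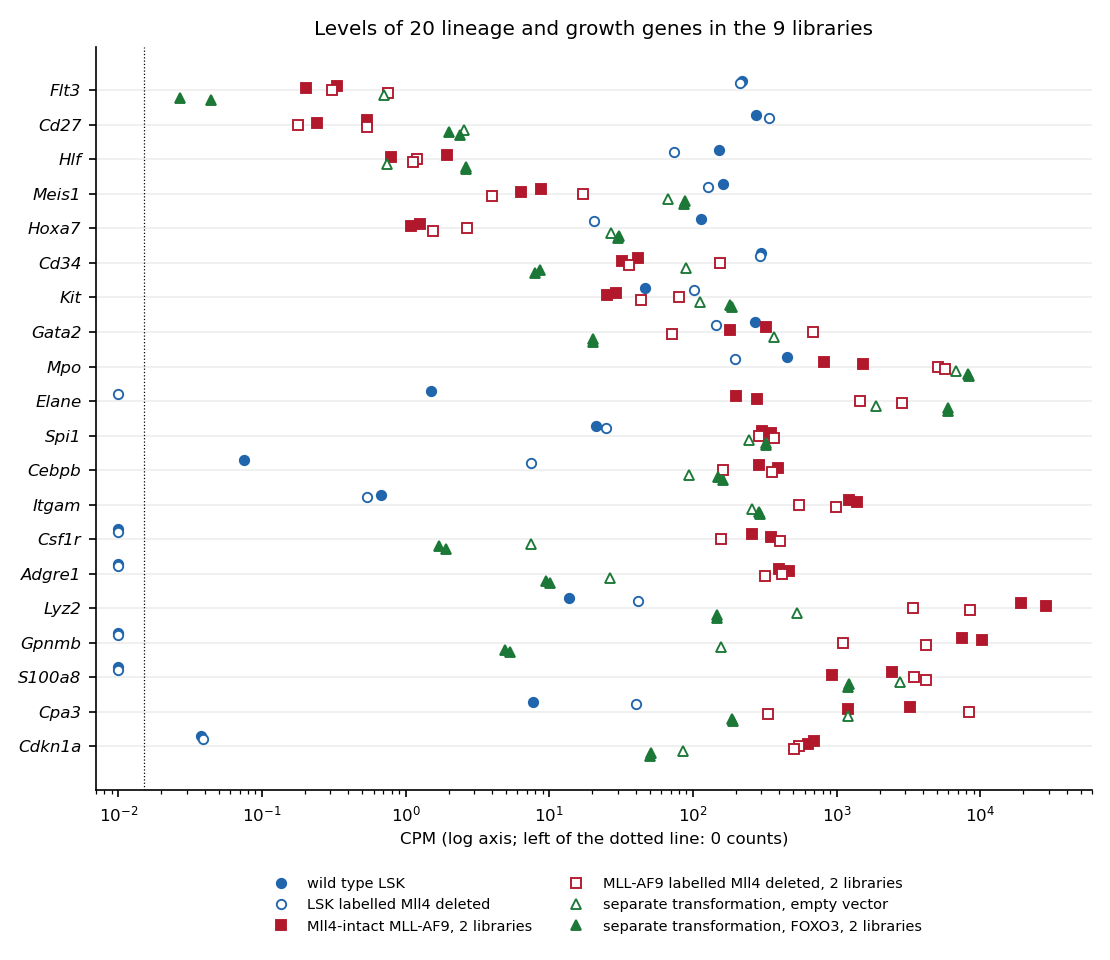
Level of 20 lineage and growth genes (rows) in all 9 libraries (x axis, CPM, log scale; marks left of the dotted line are 0 counts). Circles are LSK libraries, squares the MLL-AF9 cells with the intact pair filled, and triangles the MLL-AF9 cells of a separate transformation. The LSK circles lie to the right of the filled squares for Flt3, Cd27, Hlf, Meis1, Hoxa7, Cd34 and Kit and to the left of them from Mpo downward.

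Genes for which MLL-AF9 is known were not higher as a group in these cultures. Of the 26 genes of the Hoxa cluster and MLL-AF9 targets, 8 were compared, with 3 higher and 3 lower. Meis1, the cofactor of Hox proteins, stood at 162 CPM in LSK cells and at 8.75 and 6.32 CPM in the MLL-AF9 libraries. Hoxa7 stood at 114 CPM against 1.27 and 1.09 CPM, and in the other LSK library at 20.5 CPM. Hoxa9, the Hox gene most tied to this leukaemia, was too low to be compared, at 8.68 CPM in LSK cells and 2.89 and 2.79 CPM in MLL-AF9 cells.

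The MLL-AF9 cells of the separate transformation in this series differed from the intact pair in these genes. Their FOXO3 libraries held Hoxa9 at 149 and 147 CPM and their empty-vector library at 94.9 CPM, and Meis1 at 88.4, 86.9 and 66.7 CPM. The libraries with Cre, from the same kind of culture as the intact pair but labelled Mll4 deleted, held Meis1 at 17.3 and 4.005 CPM and Hoxa9 at 10.99 and 9.55 CPM. The low levels were thus not common to all MLL-AF9 cells of the series. Among the targets called higher, Zeb2, a repressor with zinc fingers that macrophages also make, stood at 25.6 CPM in LSK cells and 186 and 221 CPM in MLL-AF9 cells. The others were Jmjd1c, a putative histone demethylase (log2 ratio 10.08, but 4.91 against the other LSK library), and Dot1l (2.76), the H3K79 methyltransferase that MLL fusions recruit. The other LSK library held Dot1l at 56.1 CPM, between the MLL-AF9 libraries. Lmo2, an adaptor of stem cell and erythroid factors, was lower, at 286 CPM against 39.9 and 40.8 CPM. Kmt2a, whose mouse copy is counted beside any reads of the fusion that align to it, stood at 105 CPM in LSK cells and 53.7 and 45.3 CPM in MLL-AF9 cells.

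Lymphoid priming genes split. Of 8 compared (of 15), 3 were lower, namely Flt3, Cd27 and Bcl11a, and 1 was higher. Bcl11a, a factor of early lymphoid and fetal haemoglobin control, had a log2 ratio of −3.62. The higher member was Il7r, the interleukin 7 receptor, at 1.47 CPM in LSK cells and 304 and 356 CPM in MLL-AF9 cells. None of the 13 B cell genes reached 50 CPM in either kind. In the T and NK list 2 of 16 were compared and both were higher: Gzmb, a cytotoxic protease that mast cells also make, stood at 1026 and 395 CPM in MLL-AF9 cells with 1 count in LSK cells, and Thy1 at 147 and 38.6 CPM with 0 counts.

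The red cell branch was seen mainly from the LSK side. Of 25 erythroid genes 6 were compared, 3 lower and 2 higher in MLL-AF9 cells. Car2, a carbonic anhydrase of red cells and of several progenitors, stood at 1562 CPM in wild type LSK cells, 469 CPM in the other LSK library and 19.5 and 9.70 CPM in the MLL-AF9 libraries. Klf1 and Car1, at 92.8 and 107 CPM in the wild type LSK library, were lower by log2 ratios of −6.02 and −8.43, but the other LSK library held them at 0 and 0.0386 CPM. The list's median log2 ratio of −4.03 was 1.55 over the same genes when that library was used in place, so the lower call for Klf1 and Car1 rests on 1 LSK library.

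A further pair of genes of this branch were among the 15 lowest ratios of the whole comparison. Tspo2, a translocator protein of erythroblasts, had a log2 ratio of −11.43 and Rhd, the Rh blood group protein, of −8.71, but both had 0 counts in the other LSK library. Tfrc, the transferrin receptor that red cell precursors and dividing cells use for iron, went the other way, with 1.504 CPM in LSK cells and 73.6 and 210.1 CPM in MLL-AF9 cells. Hbb-bs, a beta-globin gene with a near-identical copy, stood at 0.414 CPM in LSK cells and 80.3 and 26.3 CPM in MLL-AF9 cells, but at 34.6 CPM in the other LSK library, between the MLL-AF9 libraries.

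Compared megakaryocyte and platelet genes were mostly higher in MLL-AF9 cells: 7 of 9 (of 20), with 1 lower. Among all compared genes 35.9% were higher and 9.82% lower. The list's median log2 ratio was 5.615. Over all 20 genes, of which 6 had 0 counts in wild type LSK cells, it was 3.96. Itga2b, the integrin chain of platelets and early progenitors, had 0 counts in LSK cells and stood at 266 and 130.0 CPM. With 0 set to 3 counts it was 1152-fold higher than in that library. In the other LSK library it stood at 2.59 CPM, a log2 ratio of 5.65. Ppbp, a platelet chemokine, likewise had 0 counts and stood at 84.5 and 40.2 CPM. Pf4 stood at 6.02 CPM in LSK cells and 212 and 181 CPM in MLL-AF9 cells. Thbs1, the matrix protein thrombospondin 1 that platelets and macrophages release, stood at 5.53 CPM against 3973 and 2515 CPM. Megakaryocyte markers at 0 in LSK cells were Itga2b and Ppbp, of 4.

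Some primary granule genes, the first products of myeloid maturation, were already on in LSK cells, and others were at or near 0. Of 15 genes 11 were compared, 6 were higher in MLL-AF9 cells and 0 were lower, beside 35.9% and 9.82% of all compared genes. The median log2 ratio was 4.09. With TMM, RLE and upper quartile scaling this median was 2.07, 1.96 and 1.74. Mpo (17523), the myeloperoxidase of these granules, stood at 452 CPM in LSK cells and at 822 and 1533 CPM in the MLL-AF9 libraries, within 4-fold for both. Prtn3, proteinase 3, also stayed within 4-fold, at 121 CPM against 133 and 187 CPM. Elane (50701), the neutrophil elastase gene next to it, did not: it stood at 1.504 CPM in LSK cells and at 200.3 and 279 CPM in MLL-AF9 cells.

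Other members that passed the limit were Ctsg and Ctsc, the cathepsins G and C, with log2 ratios of 4.76 and 4.40. Ms4a3, a membrane protein of granulocyte-monocyte progenitors, had 0 counts in both LSK libraries and stood at 109 and 97.9 CPM. With 0 set to 3 counts it was 868-fold higher than in wild type LSK cells. Cst7, a cystatin of granules, had 3 counts in LSK cells against 108 and 60.5 CPM, a log2 ratio of 9.07 (95% interval 7.52 to 11.35, exact binomial), but stood at 16.9 CPM in the other LSK library, within 4-fold of the MLL-AF9 libraries (log2 ratio 1.84). Srgn, the proteoglycan core that packs granule proteins, was on in both kinds, at 495 CPM and 999 and 708 CPM.

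Because primary and later granule genes are known targets of the factors PU.1 (Spi1) and C/EBP, the stretches of their promoters that hold a letter match to the usual motifs of these factors are shown. Promoter windows were the 250 bases before each RefSeq transcript start (GRCm38.p6, another build than the mm9 of the counts), searched on both strands for GAGGAAGT, a PU.1-type word, and TTGCNNAA, a C/EBP-type word. The matches are in capitals. GAGGAAGT lay in the windows of 4 of the 13 primary granule genes with a RefSeq promoter (30.8%), against 755 of 27025 genes with one (2.79%):
Elane, chr10:79886216-79886245, plus strand: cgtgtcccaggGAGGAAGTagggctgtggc
Prtn3, chr10:79879561-79879590, plus strand: caaactggaagGAGGAAGTgggacccacag
Mpo, chr11:87793549-87793578, plus strand: gtggagagagaGAGGAAGTtgcctttgtcc
Ctsc, chr7:88277923-88277952, plus strand: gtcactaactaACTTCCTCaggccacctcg
In Ctsc the word is on the opposite strand and reads ACTTCCTC. The matches started 85, 95, 224 and 151 bases before the transcript start in the order shown. TTGCNNAA lay in the windows of 10 of 30 late neutrophil genes with a promoter (33.3%), against 2930 of the 27025 genes (10.8%):
Ltf, chr9:111019206-111019235, plus strand: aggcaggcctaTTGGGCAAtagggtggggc
Lcn2, chr2:32387937-32387966, minus strand: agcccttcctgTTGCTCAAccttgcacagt
Ngp, chr9:110419659-110419688, plus strand: gtcctggtttaTTGCCCAAacctccttgcc
S100a9, chr3:90695939-90695968, minus strand: ggtaggctgtcTTGCTTAAgatttgggcgg
In Ltf the word is on the opposite strand. Each sequence is written 5′ to 3′ on the strand of its gene, and no stretch shown holds both words. The words were also counted in the other list: TTGCNNAA in 1 of 13 primary granule genes (7.69%) and GAGGAAGT in 4 of 30 late neutrophil genes (13.3%). Over all genes called higher, GAGGAAGT was found in 3.99% of the 1327 with a promoter, over those called lower in 1.99% of 351, and over those called neither in 3.33% of 2044. TTGCNNAA was found in 11.2%, 7.12% and 8.9% of these genes in the same order. The motifs and these genes were chosen with the values known, and a match of letters is not a binding site.

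Late neutrophil genes, made after the primary granules, were near 0 in LSK cells and high in MLL-AF9 cells. Of 34 genes 27 were compared and 24 were higher, beside 35.9% of all compared genes. None was lower, and the median log2 ratio was 10.47. In wild type LSK cells 26 of the 34 had 0 counts. Such genes were compared through their MLL-AF9 level, which makes a higher call likely. Over all 34 genes the median log2 ratio was 8.98. S100a8 (20201), an abundant calcium-binding alarmin of neutrophils, had 0 counts in both LSK libraries and stood at 2425 and 925 CPM in MLL-AF9 libraries 1 and 2. Ngp, neutrophilic granule protein, and Ltf, lactoferrin, also had 0 counts in LSK cells, against 2104 and 837 CPM for Ngp and 737 and 323 CPM for Ltf. Library 1 held these granule genes at 2 to 3 times the level of library 2.

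Chil3 (12655), a chitinase-like protein of neutrophils and of activated macrophages, had 0 counts in LSK cells and stood at 26692 and 27394 CPM. With 0 set to 3 counts it was 236672-fold higher in MLL-AF9 cells. Its near copy Chil4 stood at 4695 and 4687 CPM with 0 counts in LSK cells, and reads may be shared between the copies. Mmp8, the neutrophil collagenase, stood at 929 and 1128 CPM with 0 counts in LSK cells. The 3 late neutrophil genes within 4-fold were Cxcr2, Csf3r and Padi4: Csf3r, the G-CSF receptor, stood at 96.9 CPM in LSK cells, between the MLL-AF9 libraries at 124 and 79.6 CPM. The list as a whole took 0.0169% of LSK counts and 4.36% and 3.69% of MLL-AF9 counts.

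Monocyte and macrophage genes took a larger share of the MLL-AF9 counts than any other lineage list. All but 1 of the 43 compared genes (of 51) were at least 4-fold higher in MLL-AF9 cells, beside 35.9% of all compared genes. Their median log2 ratio was 10.33. In wild type LSK cells 26 of the 51 had 0 counts. Such genes were compared through their MLL-AF9 level, which makes a higher call likely. Over all 51 genes the median was 9.04. They took 0.104% of the counts of LSK cells and 9.48% and 14.1% of those of MLL-AF9 libraries 1 and 2. Of the higher members 42 were also higher against the other LSK library. The growth factor receptor Csf1r (12978) and the macrophage receptor Adgre1 (F4/80) had 0 counts in both LSK libraries. In MLL-AF9 cells Csf1r stood at 258 and 352 CPM and Adgre1 at 395 and 467 CPM.

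Products of mature macrophages were among the furthest apart. Gpnmb (93695), a lysosomal and surface glycoprotein of lipid-laden macrophages, stood at 7419 and 10321 CPM, Lgals3 (galectin 3) at 3866 and 5828 CPM and the chemokine Ccl6 at 8529 and 13720.0 CPM, each with 0 counts in both LSK libraries. Spp1, osteopontin, had 1 count in the wild type LSK library and stood at 4226 and 7597 CPM in MLL-AF9 cells. Mmp12, the macrophage elastase, had 2 counts against 6614 and 8757 CPM, a log2 ratio of 16.43 (95% interval 14.57 to 19.47, exact binomial). Fn1, fibronectin, had 1 count and stood at 859.8 and 2853 CPM, with library 2 more than 3 times library 1.

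Members that LSK cells did carry were higher as well. Lyz2 (17105), the lysozyme of macrophages and granulocytes, stood at 13.7 CPM in LSK cells and at 19157 and 28578 CPM in MLL-AF9 cells. Itgam, the CD11b integrin chain that the lineage sort uses, had 18 counts in LSK cells (0.677 CPM) and stood at 1229 and 1385 CPM. Ctsd, cathepsin D, stood at 239 CPM against 10383 and 15618 CPM. Apoe, the apolipoprotein of resident macrophages, was the exception, at 173 CPM in LSK cells and 3.202 and 1.86 CPM in MLL-AF9 cells, and it stood at 41.2 CPM in the other LSK library.

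These macrophage levels did not extend to every MLL-AF9 library of the series. In the FOXO3 and empty-vector libraries of the separate transformation, Csf1r stood at 1.70, 1.92 and 7.46 CPM and Gpnmb at 4.96, 5.30 and 157 CPM. Elane was higher there than in the intact pair, at 5966, 5981 and 1891 CPM. Over all genes, 1261 of the 1654 higher and 233 of the 453 lower calls held in each of the 7 MLL-AF9 libraries.

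Mast cell, basophil and eosinophil genes formed another myeloid branch in these cultures. Of 13 compared (of 24), 12 were higher and none lower, with a median log2 ratio of 10.16. Among all compared genes 35.9% were higher. In wild type LSK cells 14 of the 24 had 0 counts. Such genes were compared through their MLL-AF9 level, which makes a higher call likely. Over all 24 genes the median was 6.86. Cpa3, the carboxypeptidase of mast cells and basophils, stood at 7.71 CPM in LSK cells and at 3245 and 1211 CPM in MLL-AF9 cells. Mcpt8, a basophil protease, had 0 counts in LSK cells and stood at 962 and 445 CPM. The eosinophil granule genes Prg2 and Epx had 0 and 1 counts in LSK cells, against 671 and 478 CPM for Prg2 and 475 and 439.5 CPM for Epx. Library 1 was above library 2 for all 4 genes, most for Cpa3 and Mcpt8. In bulk RNA the share of such cells in the culture was not measured.

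Antigen presentation genes were not higher as a group. Of 7 compared dendritic cell and MHC class II genes (of 20), 1 was higher and 1 lower, the lower one being Flt3. Cd74, the invariant chain that guides MHC class II, stood at 10.1 CPM in LSK cells and 252 and 73.8 CPM in MLL-AF9 cells, but at 104 CPM in the other LSK library. H2-Ab1, an MHC class II chain, stood at 78.6 CPM in LSK cells and 72.6 and 17.3 CPM in MLL-AF9 cells. Of 15 stromal and endothelial genes 2 reached 50 CPM in either kind.

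**Figure D4:**
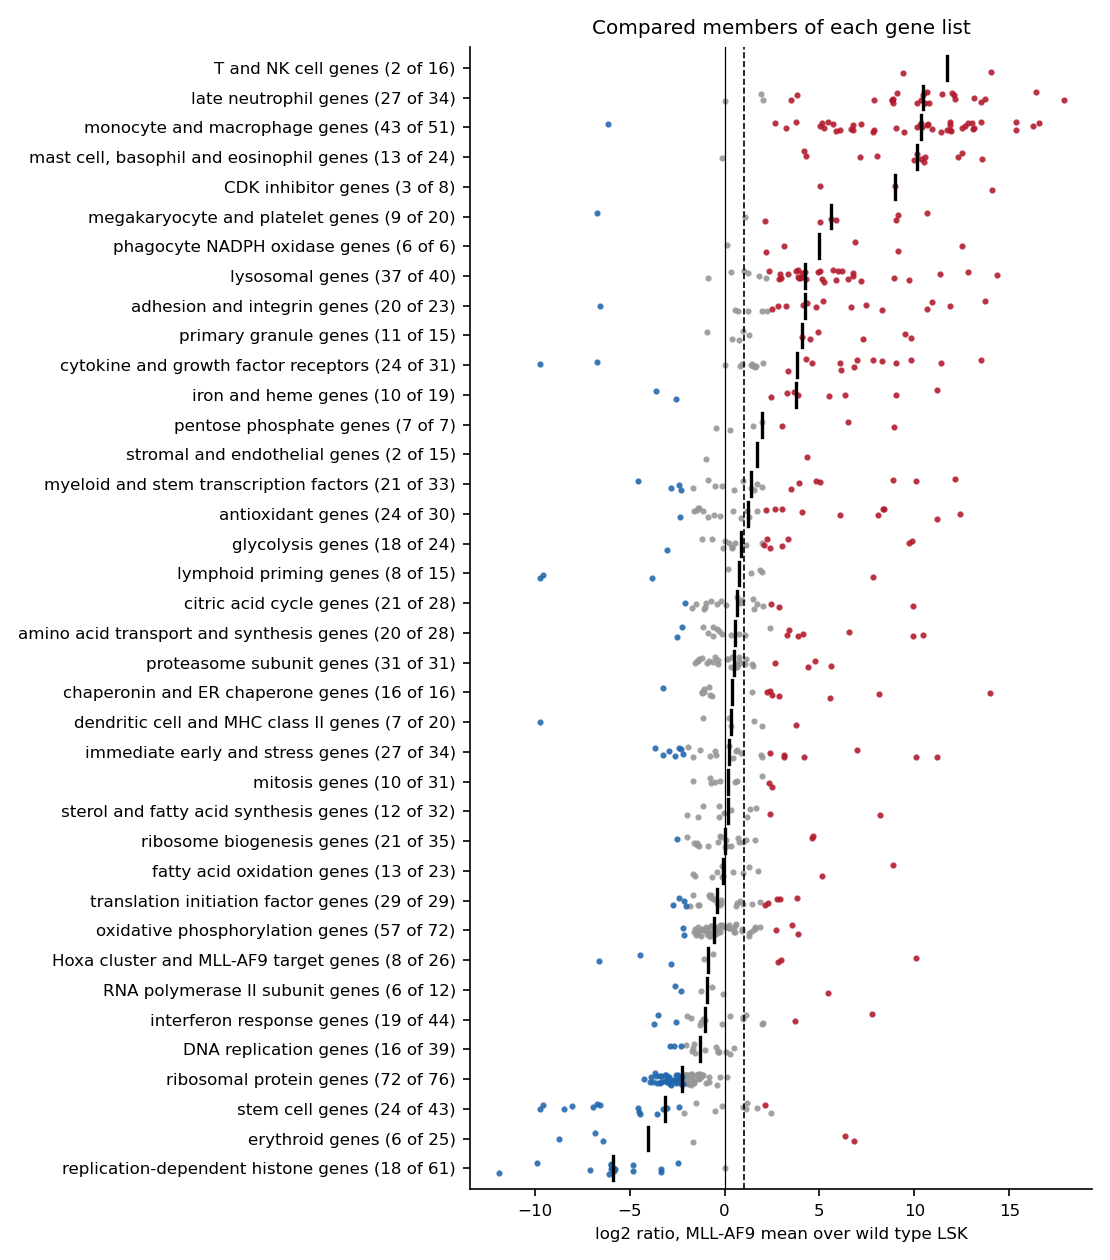
Log2 ratio of MLL-AF9 to LSK cells (x axis, mean of the 2 MLL-AF9 libraries, 0 counts set to 3) for each compared member of the gene lists with at least 2 such members (rows, with compared of measured genes). Red and blue points passed the 4-fold limit in both MLL-AF9 libraries, grey points did not, black bars are list medians, and the dashed line is the median of all compared genes at 1.05. Neutrophil and macrophage medians lie above 10, those of stem cell, erythroid and histone genes below −3, and most metabolic lists between −1 and 2.

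Transcription factors lay on both sides. Of 21 compared factors (of 33), 7 were higher, a share near the 35.9% of all compared genes, and 4 lower. The median log2 ratio of 1.39 was 0.007 with upper quartile scaling and −0.041 centred by transcript length. Spi1, which encodes PU.1, stood at 21.1 CPM in LSK cells and at 303 and 347 CPM in MLL-AF9 cells. Cebpa, needed to enter the granulocyte-monocyte path, stood at 4.32 CPM against 118 and 124 CPM. Cebpb, a factor of late myeloid cells and macrophages, had 2 counts in LSK cells and stood at 290.2 and 389.6 CPM, a log2 ratio of 11.91 (95% interval 10.06 to 14.96, exact binomial). In the other LSK library Cebpb stood at 7.41 CPM, a log2 ratio of 5.29, outside that interval.

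Cebpe, the factor of the later neutrophil granules, had 0 counts in LSK cells and stood at 85.5 and 33.3 CPM. Egr2, an early growth response factor of macrophages, also had 0 counts in both LSK libraries, against 93.4 and 158 CPM. On the lower side, Gfi1b, a repressor of stem and erythroid cells, stood at 165 CPM in LSK cells, 0.850 CPM in the other LSK library and 9.00 and 5.31 CPM in MLL-AF9 cells. Myc, a driver of growth, stood at 403 CPM in LSK cells and 73.1 and 91.4 CPM in MLL-AF9 cells. Runx1 and Ikzf1, factors of both stages, stayed within 4-fold in both MLL-AF9 libraries, with log2 ratios of 0.89 and 0.98.

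Receptor genes were more often higher than lower, as were all compared genes (35.9% and 9.82%). Of 24 compared receptor genes (of 31), 13 were higher and 2 lower, Flt3 among the latter. Their median log2 ratio was 3.81. Over all 31 genes it was 1.65, beside 1.13 over all genes with more than 3 counts in any of the compared libraries. Csf2rb (12983), the shared signalling chain of the GM-CSF, interleukin 3 and interleukin 5 receptors, stood at 47.3 CPM in LSK cells and at 3581 and 3004 CPM in MLL-AF9 cells. Its mouse paralog Csf2rb2, with which it may share reads, stood at 17.9 CPM against 2475 and 1664 CPM. Ccr1, a receptor of inflammatory chemokines, had 1 count in LSK cells and stood at 390.0 and 504 CPM. Csf2ra, the GM-CSF receptor's own chain, stayed within 4-fold, with 82.2 CPM in LSK cells and 201 and 275 CPM.

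Adhesion genes were mostly on the higher side: 14 of 20 compared were higher and 1 lower, beside 35.9% and 9.82% of all compared genes. Itgb2, the beta chain shared by leukocyte integrins, stood at 5.41 CPM in LSK cells and 1445 and 2041 CPM in MLL-AF9 cells, and Itgax, CD11c, had 0 counts in both LSK libraries against 363 and 498 CPM. Esam was the lower member. Of the 6 genes of the phagocyte NADPH oxidase, which makes superoxide in the phagosome, 5 were higher. Its catalytic subunit Cybb had 0 counts in both LSK libraries and stood at 561 and 749 CPM, while Rac2, the GTPase it shares with other processes, stood at 439.9 CPM in LSK cells and 604 and 385 CPM.

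Ribosomal protein genes stood out on the lower side. None of the 72 compared (of 76) was called higher and 39 were at least 4-fold lower in MLL-AF9 cells, beside 9.82% of all compared genes. The median log2 ratio was −2.26, and 32 were also lower against the other LSK library. The list took 33.2% of all counts in wild type LSK cells and 36.5% in the other LSK library, against 5.90% and 4.58% in the MLL-AF9 libraries. Rplp0, a stalk protein of the large subunit, stood at 24188 CPM in LSK cells and at 1931 and 1444 CPM in MLL-AF9 cells. Rpl3 stood at 11211 CPM against 701 and 745 CPM. These transcripts are short, in the length range where ratios were lowest, and many have processed pseudogenes, so single values are uncertain.

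The machinery around the ribosome did not share the size of this difference. Of 21 compared ribosome biogenesis genes, 2 were higher and 1 lower, with a median log2 ratio of 0.01. The lower one was Npm1, nucleophosmin, at 2954 CPM in LSK cells and 534 and 523 CPM in MLL-AF9 cells. Of the 29 initiation factor genes, all compared, 5 were higher and 4 lower, the lower ones being 4 subunits of eIF3 (Eif3g, Eif3h, Eif3i and Eif3m, of which Eif3g was within 4-fold of the other LSK library). The counts of ribosomal proteins in LSK cells enter the library total, so each other gene's CPM is lower there than it would be without them. Scaling by TMM, by relative log expression (RLE) or by the upper quartile moved the median of all compared genes from 1.05 to −0.19, −0.36 and −0.68. Part of that shift is a wider set of genes at 50 CPM, 5361, 5510 and 5531 genes, since these scalings raise LSK levels; a single gene moved less, as Hspa5, from 2.47 to 1.82, 1.70 and 1.49. Under all 3 scalings the medians of the lymphoid priming, dendritic cell, stromal, mitosis, ribosome biogenesis, citric acid cycle, proteasome, amino acid, sterol synthesis, and immediate early lists went from above to below 0. Calls of lower genes went from 453 to 984, 1097 and 1308 under these scalings, and the share of calls on the higher side went from 78.5% to 57.9%, 54.6% and 47.2%.

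**Figure D5:**
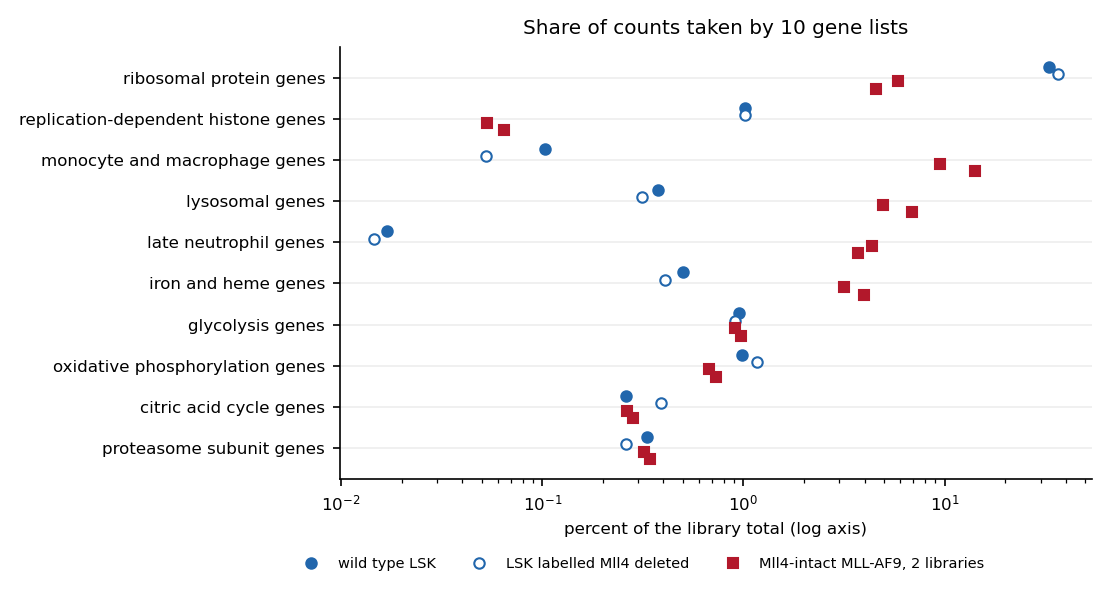
Share of each library's counts (x axis, percent, log scale) taken by 10 gene lists (rows) in the LSK libraries (circles; open, labelled Mll4 deleted) and the MLL-AF9 libraries (squares). Ribosomal protein genes take 33.2% and 36.5% in LSK cells and 5.90% and 4.58% in MLL-AF9 cells, while glycolysis, citric acid cycle and proteasome genes lie close together.

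Histone genes that are transcribed with DNA replication were lower still. Of 61 genes 18 were compared and 17 were lower, beside 9.82% of all compared genes, with a median log2 ratio of −5.87. Against the other LSK library as well, 14 of the 17 were lower. Only 1 gene reached 50 CPM in both MLL-AF9 libraries. Most were thus compared through their LSK level, which makes a lower call likely. Over the 59 genes with more than 3 counts in any of the compared libraries the median log2 ratio was −3.86. H2ac23, an H2A gene, stood at 222 CPM in wild type LSK cells, 236 CPM in the other LSK library and 0.0416 and 0.0808 CPM in MLL-AF9 cells. H2bc4, an H2B gene, was the member not called, at 58.3 CPM against 47.1 and 75.2 CPM. These genes are near-identical copies whose reads may be shared, and most of their RNA has no poly(A) tail; the part of the library protocols in this difference was not tested.

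Genes of DNA replication pointed the same way but less far. Of 16 compared (of 39), 3 were lower and none higher, with a median log2 ratio of −1.29. Over all 39 genes the median was −0.34. Mcm3, a subunit of the replicative helicase, stood at 505 CPM in LSK cells and 64.3 and 71.6 CPM in MLL-AF9 cells, and Mcm7 had a log2 ratio of −2.52. In the other LSK library Mcm3 stood at 142 CPM, within 4-fold of the MLL-AF9 libraries. The third was Pole, the catalytic subunit of DNA polymerase epsilon, at 71.2 CPM against 13.3 and 15.9 CPM, with 20.9 CPM in the other LSK library. Of the 3 lower calls 1 held against that library. Over all 7 MLL-AF9 libraries the median of this list changed sign, to 0.58.

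Compared mitosis genes lay on both sides of equality. Of 10 compared (of 31), 2 were higher and 0 lower, with a median log2 ratio of 0.17. Over all 31 genes the median was 1.40, beside 1.13 over all genes with more than 3 counts in any of the compared libraries. Mki67, the proliferation antigen, stood at 41.3 CPM in LSK cells and 285 and 198 CPM in MLL-AF9 cells, and Hmmr, a spindle protein, had a log2 ratio of 2.24 (1.79 against the other LSK library). Ccnb2, cyclin B2, went the other way without passing the limit, at 100.2 CPM in LSK cells and 32.7 and 29.7 CPM. Top2a, a topoisomerase of dividing cells, stood at 75.0 CPM against 119.8 and 118 CPM.

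Inhibitors of the cell cycle were higher in MLL-AF9 cells: 3 of 3 compared (of 8), beside 35.9% of all compared genes. All 3 reached 50 CPM only in MLL-AF9 cells, which makes a higher call likely. Over all 8 genes the median log2 ratio was 6.59. Cdkn1a, the p21 inhibitor induced by p53, had 1 count in each LSK library and stood at 695 and 637 CPM in MLL-AF9 cells, a log2 ratio of 14.05 (95% interval 11.57 to 19.35, exact binomial). Cdkn2a, the locus of p16 and p19Arf, had 0 counts in both LSK libraries and stood at 74.6 and 42.2 CPM. With 0 set to 3 counts it was 375-fold higher than in wild type LSK cells. Cdkn2d, p19 of the INK4 family, stood at 2.03 CPM against 90.4 and 47.2 CPM. In the separate transformation Cdkn1a was lower than in the intact pair, at 51.5 and 49.9 CPM with FOXO3 and 85.3 CPM with the empty vector.

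Glycolysis genes took a like share of counts in both kinds, 0.951% in LSK cells and 0.903% and 0.977% in MLL-AF9 cells. Of 18 compared (of 24), 7 were higher, a share near that of all genes (35.9%), and 1 lower, and the median log2 ratio of 0.84 was below that of all genes. The isoforms differed: Hk3, the hexokinase of myeloid cells, had 7 counts in LSK cells (0.263 CPM) and stood at 285 and 209.9 CPM in MLL-AF9 cells, whereas Hk1 stood at 107 CPM against 184 and 129 CPM. Slc16a3, the lactate exporter MCT4, had 0 counts in LSK cells and stood at 119.7 and 78.0 CPM. Pfkm, the muscle-type phosphofructokinase, was the lower member, at 107 CPM against 12.6 and 13.5 CPM, but at 43.9 CPM in the other LSK library it was within 4-fold. Gapdh, which carries out a middle step, stood at 5814 CPM in LSK cells and 2319 and 2896 CPM in MLL-AF9 cells.

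The pentose phosphate pathway, which makes NADPH and ribose, had 3 of 7 genes higher and none lower. This lay near the 35.9% of all compared genes called higher. The list's median log2 ratio of 1.99 ranged from 0.71 to 2.25 over the settings tried. G6pdx, the rate-limiting first enzyme of the pathway, stood at 19.4 CPM in LSK cells and 161 and 158 CPM in MLL-AF9 cells. Rpia had 0 counts in both LSK libraries against 65.3 and 46.0 CPM, and Rpe had 17 counts. Taldo1, the transaldolase, stayed close, at 255 CPM against 305 and 305 CPM.

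Mitochondrial metabolism differed little beside the other groups. Of 57 compared oxidative phosphorylation genes (of 72), 3 were higher and 2 lower, and the median log2 ratio was −0.55. The lower ones were Ndufb11 and Ndufv1 of complex I, with log2 ratios of −2.12 and −2.06 (−1.81 and −0.69 against the other LSK library), and the higher ones Uqcrb (3.46), Cox7a2 (3.83) and Cox7b (2.53). Of 21 compared citric acid cycle genes 3 were higher and 1 lower, with a median log2 ratio of 0.66. Idh1, the cytosolic isocitrate dehydrogenase, had 3 counts in wild type LSK cells and 7.65 CPM in the other LSK library, against 100.4 and 118 CPM. Cs, citrate synthase, stood at 27.9 CPM in LSK cells and 195 and 209 CPM in MLL-AF9 cells, but at 82.1 CPM in the other LSK library, within 4-fold.

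Lipid genes were mostly within 4-fold. Of 13 compared fatty acid oxidation genes 2 were higher and none lower: Acadvl, an acyl-CoA dehydrogenase (1.504 CPM in wild type LSK cells, 99.0 CPM in the other LSK library and 51.5 and 53.6 CPM in MLL-AF9 cells), and Pparg, the nuclear receptor of lipid storage and alveolar-type macrophages, which had 0 counts in both LSK libraries and stood at 45.9 and 62.4 CPM. Of 12 compared sterol and fatty acid synthesis genes (of 32), 2 were higher, Srebf1 among them, and 0 of these calls held against the other LSK library, where Srebf1 stood at 42.1 CPM. Scd2, a desaturase, stood at 267 CPM in LSK cells, between the MLL-AF9 libraries at 279 and 164 CPM. The share of members called higher in these mitochondrial and lipid lists was below the 35.9% of all compared genes.

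Lysosomal genes stood out on the higher side. Of 37 compared (of 40), 31 were higher and none lower, beside 35.9% and 9.82% of all compared genes. The median log2 ratio was 4.26, and 29 were also higher against the other LSK library. The list took 0.376% of counts in LSK cells and 4.92% and 6.85% in MLL-AF9 cells. Psap, the precursor of the saposins that present lipids to hydrolases, stood at 154 CPM in LSK cells and at 13163 and 20690.1 CPM in MLL-AF9 cells. Ctsl, cathepsin L, stood at 46.5 CPM against 4233 and 6205 CPM, and Lamp1, a membrane protein of the organelle, at 171 CPM against 1147 and 1501 CPM.

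The proton pump of the lysosome was part of this. Atp6v0d2, a subunit found in osteoclasts and macrophages, had 1 count in LSK cells and stood at 632 and 954 CPM in MLL-AF9 cells. Its broadly expressed counterpart Atp6v0d1 stood at 3.38 CPM against 208 and 224 CPM. Members that stayed within 4-fold included Npc2, a cholesterol carrier, at 475 CPM in LSK cells and 563 and 638 CPM, and Hexa, a subunit of the acid hexosaminidases, at 131 CPM and 430.0 and 495 CPM. Some of these genes, such as Ctsd and Cd68, are also in the macrophage list.

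Iron and heme genes were mostly higher in MLL-AF9 cells. Of 10 compared (of 19), 8 were higher and 2 lower, beside 35.9% and 9.82% of all compared genes. Genes of iron storage and of heme breakdown were on the higher side: the ferritin chains Fth1 and Ftl1 stood at 2645 and 1909.6 CPM in LSK cells, against 12283 and 17223 CPM for Fth1 and 17778 and 20225 CPM for Ftl1. Hmox1, heme oxygenase 1, had 0 counts in both LSK libraries and stood at 252 and 268 CPM. The lower genes both serve heme synthesis: Alad stood at 108 CPM in LSK cells and 8.98 and 8.67 CPM in MLL-AF9 cells, and Urod at 153 CPM against 26.2 and 25.7 CPM. Both stood near 0 in the other LSK library, at 1.78 and 0.0386 CPM, as did the erythroid genes above. Alas1, the housekeeping first enzyme of heme synthesis, was higher in MLL-AF9 cells, at 15.3 CPM against 523 and 890.4 CPM.

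Antioxidant genes also went in both directions, with 10 of 24 compared higher and 1 lower, beside 35.9% and 9.82% of all compared genes. Their median log2 ratio was 1.22 (all genes 1.05). Prdx1, a peroxiredoxin, stood at 69.1 CPM in LSK cells and 855 and 1572 CPM in MLL-AF9 cells, while its red cell relative Prdx2 stood at 372 CPM against 115 and 175 CPM, within 4-fold. Sod1, the cytosolic superoxide dismutase, was the lower member, at 418 CPM against 85.0 and 79.2 CPM. Msrb1, a selenoprotein that repairs oxidised methionine, had 1 count in LSK cells and stood at 225 and 190.1 CPM.

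Amino acid genes went in both directions. Of 20 compared (of 28), 7 were higher, near the 35.9% of all compared genes, and 2 lower. Slc7a5, the large neutral amino acid transporter, had 7 counts in LSK cells (0.263 CPM; 11.6 CPM in the other LSK library) and stood at 286 and 223 CPM in MLL-AF9 cells. The lower genes were Mthfd1 and Shmt1, cytosolic enzymes of folate metabolism, with log2 ratios of −2.41 and −2.23. Neither call held against the other LSK library, where Mthfd1 had a log2 ratio of −1.26 and Shmt1 stood at 0.888 CPM, below both MLL-AF9 libraries. Their mitochondrial counterpart Mthfd2 was higher, at 6.43 CPM against 118 and 110.1 CPM.

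Protein folding genes split by compartment. The 8 subunits of the cytosolic chaperonin were all below their LSK level, 1 of them past the limit: Cct5 stood at 1739.7 CPM in LSK cells and 181 and 186 CPM in MLL-AF9 cells, and Cct2 at 466 CPM against 197 and 218 CPM. The 8 chaperones of the endoplasmic reticulum were all above it, 7 past the limit: Hspa5 (BiP) stood at 180.0 CPM in LSK cells and 1028 and 995 CPM in MLL-AF9 cells. The member within the limit was Pdia6, a disulfide isomerase, with a log2 ratio of 1.35, which stood at 0.32 with upper quartile scaling. With TMM, RLE or upper quartile scaling the median over these 16 genes went from 0.39 to below 0. Proteasome subunits were close in both kinds, at 0.332% of LSK counts and 0.320% and 0.343% of MLL-AF9 counts, with 4 of 31 higher and none lower. Of the 6 RNA polymerase II subunit genes compared, 1 was higher and 2 were lower. These subunit, chaperone, initiation factor and histone lists were added after values had been seen.

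The LSK donors had received polyIC, an inducer of interferon. Compared interferon response genes leaned to the side of the wild type LSK library, and the part of polyIC in this was not tested. Of 19 compared (of 44), 2 were higher and 3 lower in MLL-AF9 cells, with a median log2 ratio of −1.06 (all genes 1.05). Over the same genes the median was −0.18 with the other LSK library in place. Over all 44 genes it was 0.23, and its sign also changed at 10 CPM and against both LSK libraries. Psmb8, a subunit of the immunoproteasome, stood at 1287 CPM in LSK cells, 573 CPM in the other LSK library and 91.5 and 103 CPM in MLL-AF9 cells. Gbp3, an interferon-induced GTPase, stood at 51.9 CPM against 4.78 and 4.28 CPM. Stat2, a transducer of the interferon signal, was higher in MLL-AF9 cells, with 7 counts in LSK cells (0.263 CPM) against 60.9 and 54.4 CPM. Its log2 ratio of 7.69 was 2.20 against the other LSK library, which held it at 11.9 CPM.

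Immediate early and stress genes, which respond to handling within minutes, went both ways. Of 27 compared, 7 were higher and 7 lower, beside 35.9% and 9.82% of all compared genes. Against the other LSK library as well, 6 of the higher and 1 of the lower calls held. The median log2 ratio of 0.21 was 2.105 over the same genes with that library in place. Fos stood at 1682 CPM in wild type LSK cells, 461 CPM in the other LSK library and 144 and 329.9 CPM in MLL-AF9 cells. Egr1 stood at 1011 CPM against 142 and 249 CPM, but at 77.6 CPM in the other LSK library, below both MLL-AF9 libraries. Atf3, a stress-induced factor, had 0 counts in both LSK libraries and stood at 243 and 278 CPM in MLL-AF9 cells. For Fos and Egr1 the LSK libraries were further from each other than the MLL-AF9 libraries were.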

How the data were processed

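RNA was sequenced in LSK cells and in MLL-AF9 cells. The values are deposited as whole-number read counts of 23282 NCBI gene numbers, with a file for each library. TopHat2 2.0.11, Bowtie 0.12.8 and the build mm9 are named in the submitters' processing notes. How reads were counted, on which annotation and whether by strand is not given in the sources used here. Overlapping genes and near-identical copies are therefore uncertain. Per the labels' protocols, LSK cDNA was amplified with 20 and 9 PCR cycles, and cDNA of 0.5 to 3 kb was taken on, which can favour some lengths. Symbols came from the RefSeq table of GRCm38.p6 (23185 numbers matched, 97 not; these took 0.0373% of LSK and 0.157% and 0.269% of MLL-AF9 counts and stayed in the totals), and lengths from the longest GENCODE M21 transcript (98.7% of compared genes).

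CPM, ratios and counting intervals (95%, exact binomial) were computed in Python 3.11.15 with scipy 1.17.1, and scaling factors with edgeR 4.0.16 in R 4.3.3. Genes were compared at 50 CPM or more in LSK cells or as the MLL-AF9 mean, and called where each MLL-AF9 library was at least 4-fold away. The calls were tried on simulated data. The members, the 34 gene lists and the alternatives were chosen with earlier results of these data known, and 5 further lists after their values were seen. Genes named by rule were 6 checks, the cell type markers, the 15 highest and 15 lowest ratios and up to 4 members per list with the largest ratio; the other genes named were chosen after their values were seen. A few genes are not reported here by name.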

Additional observations from a re-analysis of the deposited data

How the results depend on the processing

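Under 17 alternatives the 1654 higher and 453 lower calls were counted again, and those that moved by more than 1.5 times were as follows. Lower calls numbered 984 with TMM, 1097 with RLE and 1308 with upper quartile scaling, 966 with a fold of 2, 177 with a fold of 8, 226 against both LSK libraries, 233 over all 7 MLL-AF9 libraries and 811 centred by transcript length. Higher and lower calls numbered 3865 and 858 at 10 CPM, 823 and 264 at 100 CPM, and 5932 and 1492 with more than 3 counts in any library. With 1 MLL-AF9 library left out, higher calls ranged from 1626 to 1795 and lower calls from 478 to 546. The share of calls on the higher side, 78.5%, was 57.9% to 47.2% under the 3 scalings and 59.0% centred by length; the cause was not tested.

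With the LSK library labelled Mll4 deleted in place of the wild type one, 10 called genes among the 177 with values named here changed sign. They were Acadvl (−0.88), Alad (2.29), Car1 (2.39), Egr1 (0.87), Gfi1b (2.65), Klf1 (2.84), Procr (0.24), Rhd (0.065), Shmt1 (4.06) and Urod (9.38). Among genes not called, the sign also changed for some, such as Kmt2a (0.52), Col1a2 (0.29) and Nkg7 (0.32). No named gene that was called changed sign under the other settings. No paired analysis was possible because the LSK group has 1 library and no test was run. In LSK cells, 3 counts are 0.113 CPM, so depth limits few genes at 50 CPM.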

Other observations

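Beyond ribosomal proteins, several abundant RNAs of protein synthesis that no list held were lower in MLL-AF9 cells. Eef1a1, the elongation factor that brings aminoacyl-tRNA to the ribosome, stood at 71595 CPM in wild type LSK cells, 35794 CPM in the other LSK library and 7692 and 5751 CPM in MLL-AF9 libraries 1 and 2. Eef1g, another elongation factor subunit, stood at 4381 CPM against 497 and 513 CPM. Tpt1, the translationally controlled tumour protein, stood at 15317 CPM against 2666 and 1937 CPM, and Rack1, a scaffold on the small ribosomal subunit, at 12265 CPM against 1311 and 994 CPM.

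Genes tied to alternatively activated macrophages were counted in MLL-AF9 cells. Arg1, the arginase of such cells, stood at 6.13 CPM in wild type LSK cells, with 0 counts in the other LSK library, and at 1495 and 1420.3 CPM in MLL-AF9 cells. Mrc1, the mannose receptor, had 0 counts in both LSK libraries and stood at 968 and 910.2 CPM, and Fabp5, a fatty acid carrier, had 3 counts in wild type LSK cells against 1349.9 and 1153 CPM. Adam8, a membrane protease of myeloid cells, had 0 counts in both LSK libraries and stood at 1180.2 and 1432 CPM. All genes of these paragraphs were chosen after their values were seen.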
